A study of Homo sapiens with 4 samples.

Results

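The guide strands of the let-7 family were measured in small RNA libraries of HCT116 cells. The 8 members, hsa-let-7a-5p, hsa-let-7b-5p, hsa-let-7c-5p, hsa-let-7e-5p, hsa-let-7f-5p, hsa-let-7g-5p, hsa-let-7i-5p and hsa-miR-98-5p, were chosen by name as let-7 miRNAs of the 5p arm that no transfected plasmid encodes. They are 8 of 1644 miRNA names and 177 of 12689 isoforms in the count table, where each isoform is a pair of ends, 5p and 3p, of 1 miRNA. hsa-let-7d-5p was not counted among them, since plasmids with let-7d sequences were among those deposited.

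The study asked how unpaired bases and wobble pairs high in the stem of primary miRNAs affect their cleavage by Microprocessor. HCT116 is an established colorectal carcinoma line. Its cells received 4 mixtures of pcDNA3 plasmids, and 1 small RNA library was made from each, so there were no replicates. All 4 libraries share the cell line, the vector backbone and the transfection. The members therefore come from the genome of the cells in every library, not from a plasmid.

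The empty vector mixture held pcDNA3 alone. The wild-type mixture held pri-mir-30a, pri-mir-142, pri-mir-30d, pri-mir-576, pri-mir-885, pri-mir-128-1, pri-mir-342, pri-mir-200b and pri-mir-16-1. The mutant 1 mixture held variants of the same pri-miRNAs with changed mismatches or wobble pairs in the seed or middle region of the stem, and the unchanged pri-mir-16-1. The mutant 2 mixture was listed with empty vector, pri-mir-16-1 and a pri-mir-342 variant. Which mixture is mutant 1 and which is mutant 2 was taken from their order in the study's list, and reads that carry variant sequences were counted as a check. The miR-30a variant had 516138 reads in the mutant 1 library and at most 29 in any other, and the 3p strand of the miR-342 variant had 47789 reads in the mutant 2 library and at most 4 in any other. The mutant 2 library also held 65088 reads of a miR-128-1 variant and 5966 of a let-7d variant, neither of which is in its listed mixture, and the mutant 1 library held 290 reads of another let-7d variant, and some of a miR-182 variant, that are not listed for it.

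The let-7 family was found as a regulator of developmental timing in worms and is conserved across animals. A guide strand is the arm of the miRNA duplex that Argonaute keeps, and it recognizes target mRNAs mainly through its seed, the bases after the first one. In mammals, let-7 guides repress messages such as those of the RAS genes, HMGA2 and LIN28, they are scarce in stem cells and abundant in most differentiated cells, and LIN28 proteins block the maturation of several of their precursors.

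The mature sequences are shown because the members differ only outside the seed, which sets how a short read can be assigned. They were taken from RefSeq (GRCh38.p14), where 8 of 8 members were matched, and capitals mark the seed, bases 2 to 8 counted from 1 at the 5′ end.
hsa-let-7a-5p: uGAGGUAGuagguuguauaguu
hsa-let-7b-5p: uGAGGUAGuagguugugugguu
hsa-let-7c-5p: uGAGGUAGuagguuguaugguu
hsa-let-7e-5p: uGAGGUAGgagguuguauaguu
hsa-let-7f-5p: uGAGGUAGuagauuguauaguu
hsa-let-7g-5p: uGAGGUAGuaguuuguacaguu
hsa-let-7i-5p: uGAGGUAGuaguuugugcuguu
hsa-miR-98-5p: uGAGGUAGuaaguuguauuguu
All 8 were 22 nt long and shared 1 seed. Of 2370 mature names in the RefSeq table, 11 had this seed. The other 3 were hsa-let-7d-5p and 2 shorter miRNAs, hsa-miR-4458 and hsa-miR-4500, for which the count table lists no read.

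With positions counted from 1 at the 5′ end and the base of hsa-let-7a-5p written first, hsa-let-7c-5p differed by A19G, hsa-let-7e-5p by U9G and hsa-let-7f-5p by G12A. hsa-let-7b-5p differed by A17G and A19G, hsa-let-7g-5p by G12U and U18C, and hsa-miR-98-5p by G11A and A19U. hsa-let-7i-5p was the farthest, with G12U, A17G, U18C and A19U. The closest pair apart from those with hsa-let-7a-5p was hsa-let-7b-5p and hsa-let-7c-5p, which differed by G17A alone. All of these differences lie at or before position 19, so a read that lost 1 or 2 bases at its 3p end still covers them.

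The members come from 11 loci in GRCh38. hsa-let-7a-5p had 3 exact matches in the genome. MIRLET7A1 holds it on the plus strand of chromosome 9 from 94175962 to 94175983, within the long noncoding RNA gene MIRLET7A1HG, MIRLET7A2 on the minus strand of chromosome 11 from 122146568 to 122146589, in introns of MIR100HG, and MIRLET7A3 on the plus strand of chromosome 22 from 46112752 to 46112773, in an exon of MIRLET7BHG. hsa-let-7f-5p had 2 matches, MIRLET7F1 on the plus strand of chromosome 9 from 94176353 to 94176374, also in MIRLET7A1HG, and MIRLET7F2 on chromosome X from 53557246 to 53557267 on the minus strand, in an intron of the ubiquitin ligase gene HUWE1.

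Each of the other 6 members had 1 match. hsa-miR-98-5p lies on chromosome X from 53556299 to 53556320 on the minus strand, in an intron of HUWE1 and 947 bases from the start of the MIRLET7F2 copy. hsa-let-7b-5p lies on the plus strand of chromosome 22 from 46113691 to 46113712, in an exon of MIRLET7BHG and 939 bases from the MIRLET7A3 copy. hsa-let-7g-5p lies on chromosome 3 from 52268336 to 52268357 on the minus strand, in an intron of WDR82. The remaining loci are each apart from the rest of the family. hsa-let-7i-5p lies on the plus strand of chromosome 12 from 62603691 to 62603712, within the long noncoding RNA gene MIRLET7IHG. hsa-let-7e-5p lies on the plus strand of chromosome 19 from 51692793 to 51692814, in an intron of SPACA6, and hsa-let-7c-5p on the plus strand of chromosome 21 from 16539838 to 16539859, within MIR99AHG.

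The values are read counts. The miRNA reads numbered 14544516 for the empty vector, 17364117 for the wild type, 19834361 for mutant 1 and 17136599 for mutant 2. Of these, 92.0%, 70.5%, 70.7% and 88.3% belonged to untransfected miRNAs, those that no deposited plasmid sequence encodes. Levels are therefore given as reads per 1000000 untransfected miRNA reads, called RPM below. Some pairs of miRNA names have the same counts. The totals above, and the sets of untransfected miRNAs used below, can thus hold the same reads under both names. The effect of this on the levels was not tested. Intervals are at 95% and cover counting error only, since each mixture had 1 library. The reads carry no molecular identifiers, so copies made during amplification were counted as separate reads. The intervals may therefore be too narrow even for counting error. In bulk RNA, a lower level from fewer cells and one from less RNA per cell cannot be told apart.

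The number of genomic matches went with the shape of the reads, which bears on hsa-let-7a-5p and hsa-let-7f-5p before any level is read. The authors kept reads with an unambiguous alignment. With the empty vector, 18 of 5823 hsa-let-7a-5p reads, 0.309%, had both annotated ends, and the shares in the wild-type, mutant 1 and mutant 2 libraries were 0.116%, 0.199% and 0.294%. For hsa-let-7f-5p this share was 49.0%, 49.1%, 49.3% and 49.2% in the same order. The members with 1 match had shares from 82.5% for hsa-let-7e-5p to 90.7% for hsa-let-7i-5p with the empty vector.

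The reads of both multicopy members came in pairs of neighbouring 3p ends. hsa-let-7f-5p reads with the annotated start ended at the annotated 3p end 13040 times and 1 nt before it 12859 times with the empty vector, a ratio of 1.01, and the ratios in the other libraries were 1.01, 1.02 and 1.02. hsa-let-7a-5p reads with the annotated start ended 1 nt before the annotated 3p end 2802 times and 2 nt before it 1359 times, a ratio of 2.06, followed by 2.07, 2.08 and 2.06. Both ratios were thus nearly constant over the 4 libraries. A further 1589 of the hsa-let-7a-5p reads with the empty vector, 27.3%, started 1 nt upstream of the annotated start, where the 3 loci differ in sequence. The full-length forms with that start are shown because each has 1 match in the genome, and capitals mark bases 2 to 8 of the longer form.
hsa-let-7a-5p from MIRLET7A1: aUGAGGUAguagguuguauaguu
hsa-let-7a-5p from MIRLET7A2: uUGAGGUAguagguuguauaguu
hsa-let-7a-5p from MIRLET7A3: gUGAGGUAguagguuguauaguu
The count table does not say from which of the 3 loci a read came.

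The same measures were taken over untransfected miRNAs, the members included. Where the mean count was 50 or more, 50 were not in the RefSeq table and were left out, and 397 had 1 exact match in the genome, and the median share of reads at both annotated ends was 44.5% with the empty vector. In 40 of them, 10.1%, the share was under 1%. Among 29 with 2 or more matches, 18 (62.1%) had a share under 1% and the median was 0. The 2 most abundant isoforms shared a start, had neighbouring 3p ends and lay within a ratio of 1.1 in 11 of the 397 (2.77%) and in 8 of the 29 (27.6%). The levels of hsa-let-7a-5p and hsa-let-7f-5p were therefore not ranked against the other members, and sums are given with and without them. How the pairs of ends arose was not tested, since the table holds no reads.

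The cells were checked against miRNA markers of cell types. All 8 epithelial and colorectal markers were read in every library, and their sum was 27325 RPM with the empty vector, 28267 for the wild type, 25214 in mutant 1 and 26444 in mutant 2, with hsa-miR-141-3p the most abundant. The fibroblast and smooth muscle pair, hsa-miR-143-3p and hsa-miR-145-5p, summed to 319.5, 366, 461.5 and 375 RPM. Within this pair hsa-miR-145-5p was at 90.7, 180, 336 and 212 RPM, and hsa-miR-143-3p went the opposite way, at 229, 186, 125 and 164 RPM. The epithelial sum was thus far above that of the pair, whose part in the let-7 values was not tested.

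Other lists were near 0. The myeloid marker hsa-miR-223-3p was at 1.64, 0.572, 1.71 and 1.85 RPM, the erythroid pair, led by hsa-miR-451a, at 1.49, 2.45, 2.85 and 2.84, and the liver marker hsa-miR-122-5p at 1.05, 1.23, 0.570 and 0.925. The lymphoid pair, led by hsa-miR-150-5p, summed to 1.72, 1.88, 1.14 and 1.45 RPM, with hsa-miR-155-5p at 0 outside the mutant 1 library. The neuron pair summed to at most 0.735 RPM, all of it hsa-miR-9-5p with hsa-miR-124-3p at 0, and the 4 pluripotent markers, led by hsa-miR-372-3p, to at most 0.598 RPM. The 3 muscle markers had no read in any library, where 3 counts would be 2.24e-05% of untransfected reads with the empty vector. Of these, hsa-miR-1-3p and hsa-miR-133a-3p have 2 genomic matches each, so a 0 says less for them than for hsa-miR-206, which has 1. The same holds for the neuron pair, where hsa-miR-9-5p has 3 matches. hsa-miR-124-3p, hsa-miR-150-5p and hsa-miR-451a were not in the RefSeq table, so their matches were not searched.

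The counted reads of the family made up about 5% of the untransfected miRNA reads. The 8 members took 5.15% (Wilson interval 5.14 to 5.16%) with the empty vector, 5.03% (5.02 to 5.04%) for the wild type, 4.28% (4.27 to 4.29%) in mutant 1 and 4.86% (4.85 to 4.87%) in mutant 2. Without hsa-let-7a-5p and hsa-let-7f-5p the shares were 4.91%, 4.80%, 4.01% and 4.60%. The share was highest with the empty vector and lowest in mutant 1, in both sums, by more than counting error. Reads of hsa-let-7a-5p and hsa-let-7f-5p that aligned to several loci may be missing from the sum over 8 members. How many are missing was not tested, so the shares are those of counted reads only.

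hsa-miR-98-5p, a let-7 family member under a different name, had the most reads among the single-copy members. The order of members here and below is one of reads. The paper names ligation during cloning as a possible source of bias, and its part in this order was not tested. It was at 16040 RPM (15972 to 16108) with the empty vector, 13643 (13578 to 13709) for the wild type, 11549 (11493 to 11605) in mutant 1 and 13443 (13384 to 13501) in mutant 2, ranks 14, 15, 15 and 15 among untransfected miRNAs. Its share of the counted reads of all 8 members was 31.1%, 27.1%, 27.0% and 27.7%. The empty vector library was thus the highest and mutant 1 the lowest for this member.

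hsa-let-7g-5p, made from the WDR82 intron, was at 12592 RPM (12532 to 12652), 11443 (11383 to 11503), 9934 (9882 to 9986) and 11159 (11105 to 11212) in the same order of libraries. hsa-let-7i-5p was at 10829 RPM (10774 to 10885), 12439 (12377 to 12502), 9951 (9899 to 10003) and 11167 (11114 to 11221). The order of this pair changed between libraries. With the empty vector hsa-let-7g-5p was 1.16 times hsa-let-7i-5p (1.16 to 1.17), in the wild-type library hsa-let-7i-5p was 1.09 times hsa-let-7g-5p (1.08 to 1.09), and in mutant 1 and mutant 2 they did not differ beyond counting error, with ratios of 1.00 (0.994 to 1.01) and 1.00 (0.994 to 1.01).

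The next members were lower. hsa-let-7b-5p was at 5398 RPM (5359 to 5437), 6614 (6568 to 6660), 5375 (5336 to 5413) and 6364 (6324 to 6404). It was high in the wild-type and mutant 2 libraries and, at this scale, equal within counting error in the others. Mutant 1 was not set against the empty vector with other scales. hsa-let-7e-5p was at 4208 RPM (4174 to 4243), 3803 (3768 to 3838), 3239 (3209 to 3268) and 3864 (3833 to 3896). Of these, hsa-let-7b-5p exceeded hsa-let-7e-5p 1.28-fold (1.27 to 1.30) with the empty vector and 1.74-fold (1.72 to 1.76), 1.66-fold (1.64 to 1.68) and 1.65-fold (1.63 to 1.66) in the other libraries.

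hsa-let-7c-5p, which differs from hsa-let-7b-5p by G17A as above, was the lowest by far. Its reads numbered 246 with the empty vector, 219 in mutant 1 and 288 in mutant 2, with the fewest in the wild-type library. Its levels in the 4 libraries were 18.4 RPM (16.2 to 20.8), 16.6 (14.4 to 19.0), 15.6 (13.6 to 17.8) and 19.0 (16.9 to 21.4). The intervals of all 4 libraries overlapped. hsa-let-7e-5p exceeded it 229-fold (202 to 259) with the empty vector, 229-fold for the wild type (200 to 263) and 207-fold in mutant 1 (182 to 237). The ratio was lowest in mutant 2, with an interval of 181 to 228, and the 4 intervals overlapped.

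The counted reads of the multicopy members are given apart. hsa-let-7f-5p was at 1987 RPM (1963 to 2011), 1895 (1871 to 1920), 2266 (2241 to 2291) and 2078 (2055 to 2101). hsa-let-7a-5p was at 435 RPM (424 to 446), 424 (413 to 436), 500.5 (489 to 512) and 495 (483 to 506). Unlike the more abundant single-copy members, both were lowest in the wild-type library and highest in mutant 1, although for hsa-let-7a-5p the intervals of mutant 1 and mutant 2 overlapped, as did those of the wild type and the empty vector.

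**Figure D1:**
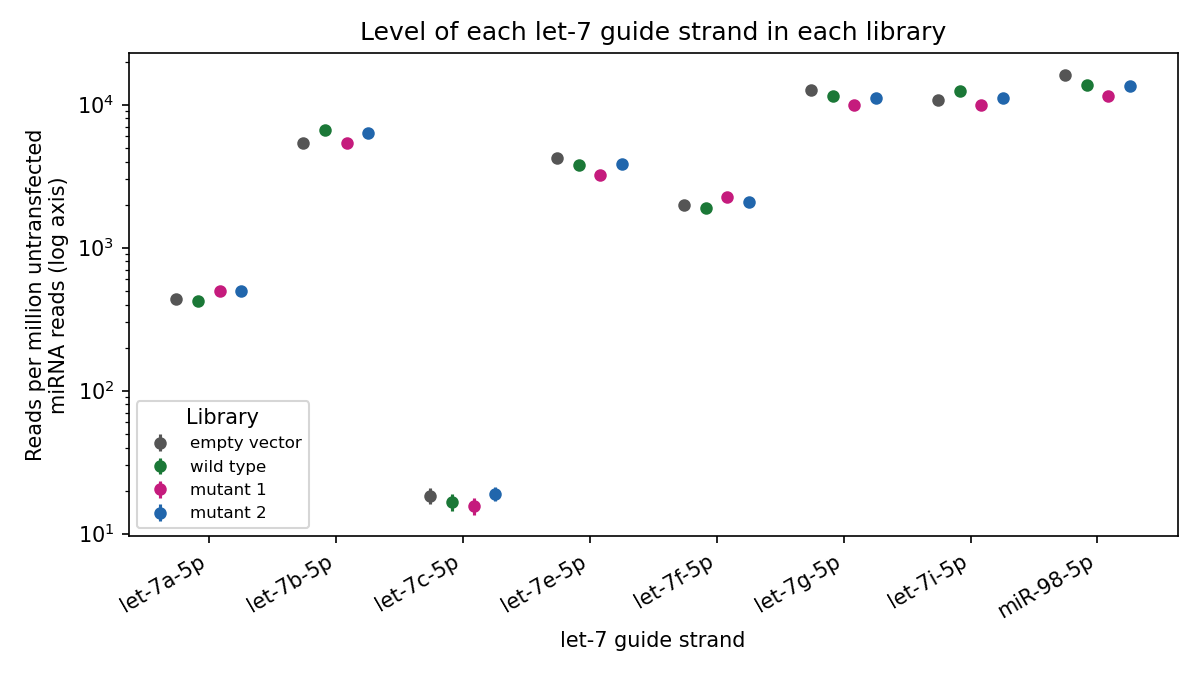
Level of each member (horizontal axis) in RPM on a log axis, with 1 point per library and bars for the 95% Poisson interval. Single-copy members span from hsa-let-7c-5p at 15.6 to 19.0 RPM to hsa-miR-98-5p at 11549 to 16040 RPM.

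The wild-type library was set against the empty vector library to see whether expression of plasmid pri-miRNAs moved the endogenous guides. The family sum was close to level, with a log2 ratio of -0.03 (-0.04 to -0.03), and it was -0.03 without the multicopy members. Over 471 untransfected miRNAs whose mean count was 50 or more the median was 0.09 and the SD 0.40. No member, 0 of 8, passed 1.5-fold in either direction, where 10.8% of untransfected miRNAs did. The family sum lay 0.12 below the median of untransfected miRNAs, and since a scaling moves both by the same amount this difference cannot depend on it.

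Members differed among themselves in this comparison. The log2 ratio was 0.29 (0.28 to 0.31) for hsa-let-7b-5p and 0.20 (0.19 to 0.21) for hsa-let-7i-5p, above the median of untransfected miRNAs. It was -0.23 (-0.24 to -0.22) for hsa-miR-98-5p, -0.15 (-0.16 to -0.13) for hsa-let-7e-5p and -0.14 (-0.15 to -0.13) for hsa-let-7g-5p, below it. The values of hsa-let-7f-5p, at -0.07 (-0.09 to -0.04), hsa-let-7a-5p, at -0.04 (-0.09 to 0.02), and hsa-let-7c-5p, at -0.15 (-0.42 to 0.12), were below it as well, the last with a wide interval. The members' median was -0.10, and 2 of 8 lay above the median of untransfected miRNAs. When all miRNA reads or miR-16-5p reads set the scale, hsa-let-7b-5p and hsa-let-7i-5p fell below 0 with the other 6, and the median of untransfected miRNAs moved to -0.30 and -0.95.

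miR-16-5p, the scaling reference of the study, was itself at 16944 RPM with the empty vector, 34753 for the wild type, 35128 in mutant 1 and 41556 in mutant 2. Its plasmid was in all mixtures but the empty vector. With this reference all 8 members passed 1.5-fold in the wild-type library against the empty vector, where 85.4% of untransfected miRNAs did, and the family sum was at -1.07. The count of 8 thus rests on the reference.

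The mutant 1 library was set against the wild-type library, since the study compared variants with wild-type pri-miRNAs. The family sum was lower in mutant 1, with a log2 ratio of -0.23 (-0.24 to -0.23) and a fold of 0.852, and without the multicopy members it was -0.26 (-0.26 to -0.25). The median over 470 untransfected miRNAs was also below 0, at -0.15, with an SD of 0.39. No member, 0 of 8, passed 1.5-fold, where 14.9% of untransfected miRNAs did. Relative to the median of untransfected miRNAs the family sum was at -0.08, and with edgeR's TMM or DESeq2's median of ratios, which centre the libraries differently, it was at -0.01 and -0.03 while that median was at 0.07 and 0.05.

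All single-copy members were lower in mutant 1. The log2 ratios were -0.32 (-0.33 to -0.31) for hsa-let-7i-5p, -0.30 (-0.31 to -0.29) for hsa-let-7b-5p and -0.24 (-0.25 to -0.23) for hsa-miR-98-5p. They were -0.23 (-0.25 to -0.21) for hsa-let-7e-5p, -0.20 (-0.21 to -0.19) for hsa-let-7g-5p and -0.09 (-0.36 to 0.19) for hsa-let-7c-5p, whose interval included 0. Under TMM hsa-let-7c-5p and hsa-let-7g-5p turned to above 0, and under DESeq2 hsa-let-7c-5p did, so the common direction depends on the scale.

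The totals of the multicopy members went the other way under every scaling tried. hsa-let-7a-5p had a log2 ratio of 0.24 (0.19 to 0.29) and hsa-let-7f-5p of 0.26 (0.23 to 0.28), the latter above 86.0% of untransfected miRNAs. This was so for reads with the annotated start, at 0.34 (0.28 to 0.40) and 0.26 (0.24 to 0.29), but not for reads that start 1 nt upstream, whose main forms have 1 genomic match. These were at -0.07 (-0.17 to 0.03) for hsa-let-7a-5p, which TMM and DESeq2 turned to 0.15 and 0.13. For hsa-let-7f-5p they were at -0.24 (-0.47 to -0.02), which TMM and DESeq2 moved close to 0, at -0.02 and -0.04. Within each member, where no scaling acts, the annotated start rose over the upstream start by 0.41 (0.29 to 0.53) and 0.51 (0.28 to 0.73). In mutant 2 against the empty vector this measure also rose, by 0.18 (0.07 to 0.29) and 0.29 (0.08 to 0.50). In the wild type against the empty vector it was -0.16 (-0.28 to -0.04) and 0.07 (-0.15 to 0.28).

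Untransfected miRNAs other than the members were split by the number of genomic matches, leaving out any that the RefSeq table does not hold. Those with 2 or more genomic matches had a median of 0.15 and 14 of 25 above 0, and those with 1 match a median of -0.18 and 125 of 387 above 0. In the wild-type library against the empty vector these medians were 0.05 and 0.11, and in mutant 2 against the empty vector 0.05 and 0.05. The miRNAs left out numbered 50 in mutant 1 against the wild type. They numbered 48 in the wild type and 53 in mutant 2, each against the empty vector. The part of the counting rule in the values of hsa-let-7a-5p and hsa-let-7f-5p was not tested.

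The mutant 2 library was set against the empty vector library, which also serves as the control of the wild-type library, so those comparisons are not independent. The family sum had a log2 ratio of -0.08 (-0.09 to -0.08), and -0.09 without the multicopy members. The median over 486 untransfected miRNAs was 0.05 and the SD 0.37. Again 0 of 8 members passed 1.5-fold, where 9.26% of untransfected miRNAs did. With miR-16-5p as the reference all 8 did, beside 95.7% of untransfected miRNAs, and the family sum was at -1.38.

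In mutant 2 against the empty vector the lowest member was hsa-miR-98-5p, at -0.25 (-0.26 to -0.25), followed by hsa-let-7g-5p at -0.17 (-0.18 to -0.16) and hsa-let-7e-5p at -0.12 (-0.14 to -0.11). The highest was hsa-let-7b-5p, at 0.24 (0.22 to 0.25), followed by hsa-let-7a-5p at 0.18 (0.14 to 0.23). These kept their sign with all scalings tried except miR-16-5p, under which all 8 members were below 0. hsa-let-7f-5p, at 0.06 (0.04 to 0.09), hsa-let-7c-5p, at 0.05 (-0.20 to 0.30), and hsa-let-7i-5p, at 0.04 (0.03 to 0.05), lay next to the median of untransfected miRNAs. With all miRNA reads as the scale, hsa-let-7c-5p and hsa-let-7i-5p fell below 0.

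Side by side, hsa-let-7b-5p was at 0.29 and 0.24 in the wild-type and mutant 2 libraries against their shared control, and hsa-miR-98-5p at -0.23 and -0.25. hsa-let-7i-5p was at 0.20 and 0.04. The members' median was -0.10 in the former and 0.05 in the latter.

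**Figure D2:**
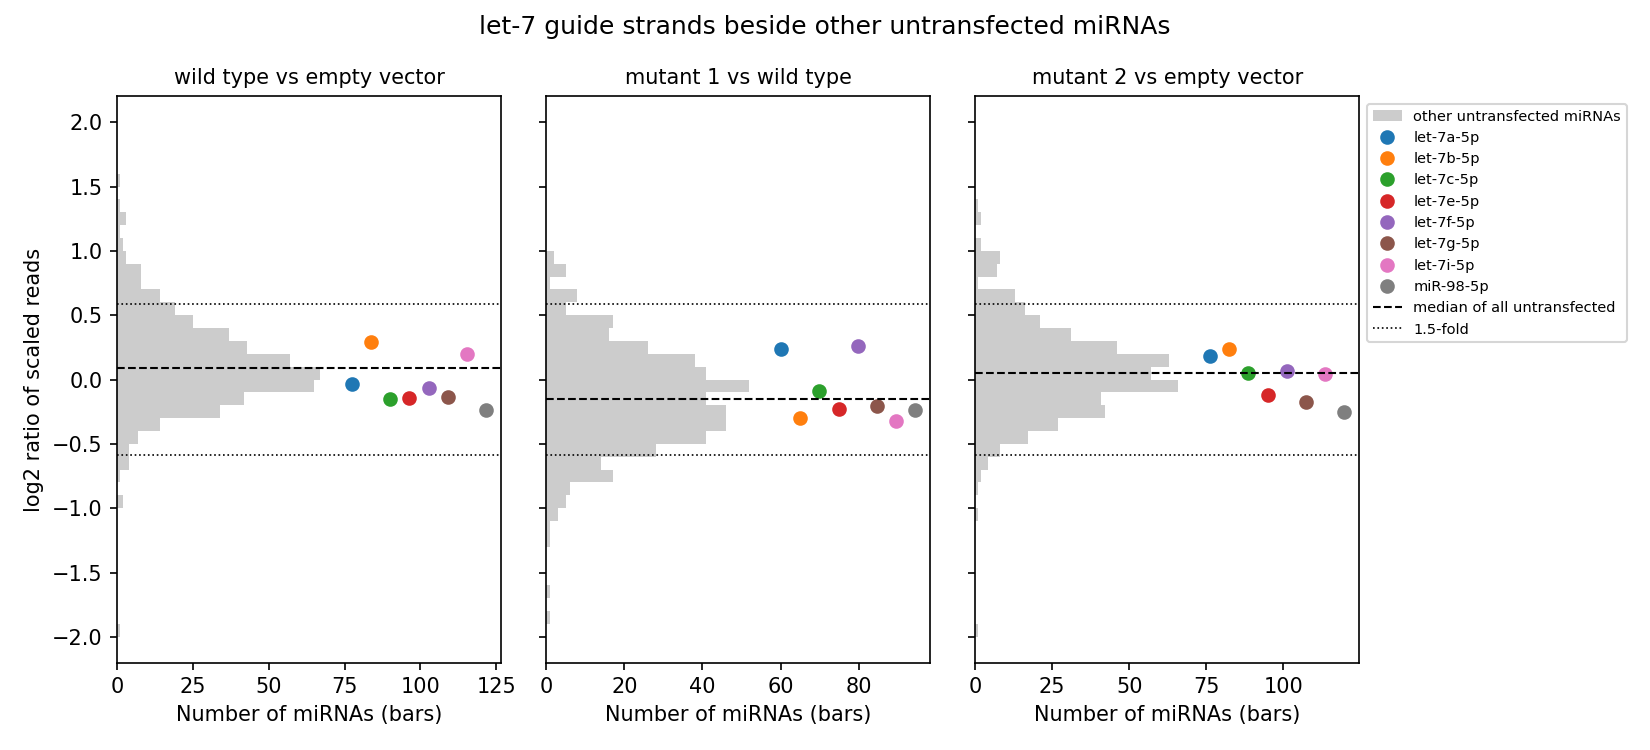
log2 ratio of scaled reads (vertical axis) in 3 comparisons. Bars count untransfected miRNAs other than the members, with values beyond 2 or -2 placed at the edge, coloured points are the 8 members, the dashed line is the median of all untransfected miRNAs and dotted lines mark 1.5-fold. All members lie between the dotted lines, and in mutant 1 against the wild type hsa-let-7a-5p and hsa-let-7f-5p lie above the other 6.

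Reads of the single-copy members started almost always at the annotated base, which fixes the seed. Summed over these 6 members, 99.58% of reads (99.57 to 99.60%) started there with the empty vector, 99.65% (99.63 to 99.66%) for the wild type, 99.61% (99.59 to 99.62%) in mutant 1 and 99.61% (99.60 to 99.63%) in mutant 2. Starts 1 nt upstream made up 0.293%, 0.231%, 0.294% and 0.273%, and starts 1 nt downstream 0.118%, 0.117%, 0.0934% and 0.108%. The summed share was highest in the wild-type library, as it was for hsa-let-7g-5p, with 98.74%, 98.95%, 98.79% and 98.81%, but not for hsa-miR-98-5p or hsa-let-7i-5p. The median over 119 untransfected 5p-arm miRNAs with 1 match and a mean of at least 200 reads was 98.8% with the empty vector, with quartiles of 92.2% and 99.6%.

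The members were not alike in the remaining starts. Among the single-copy members hsa-let-7g-5p had the highest share of reads 1 nt upstream, 1.07% (1.02 to 1.12%) with the empty vector, 0.863% (0.816 to 0.913%) for the wild type, 1.08% (1.03 to 1.13%) in mutant 1 and 1.03% (0.983 to 1.08%) in mutant 2. hsa-miR-98-5p and hsa-let-7b-5p had none in any library, of 214626 and 72230 reads with the empty vector. In hsa-miR-98-5p, 99.9% of reads had the annotated start in every library, above 92.4% of the 5p-arm miRNAs with the empty vector. hsa-let-7g-5p, with 98.7%, was above 48.7% of them.

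The 3p ends varied more than the 5p ends. Among reads of hsa-miR-98-5p with the empty vector, 89.8% (89.7 to 89.9%) ended at the annotated base, 9.04% (8.92 to 9.16%) ran 1 nt past it and 0.348% (0.324 to 0.374%) stopped 1 nt short. hsa-let-7i-5p was similar, with 90.8%, 7.71% and 0.275%, and hsa-let-7g-5p had 90.2%, 6.71% and 1.92%. In these 3 members, longer reads outnumbered shorter ones.

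hsa-let-7e-5p had the highest share of reads 1 nt longer, 12.3% (12.0 to 12.5%), with 82.7% at the annotated end and 3.34% 1 nt short. Among the single-copy members hsa-let-7b-5p had the highest share 1 nt short, 8.52% (8.32 to 8.73%), with 83.2% at the annotated end and 6.87% 1 nt longer. For hsa-let-7c-5p the shares were 85.4% (80.4 to 89.2%), 9.35% (6.31 to 13.6%) and 2.44% (1.12 to 5.22%) at the annotated end, 1 nt longer and 1 nt short. A base added after cleavage and a base of the precursor cannot be told apart here, since the authors allowed mismatches at the 3p end and the table holds offsets only.

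**Figure D3:**
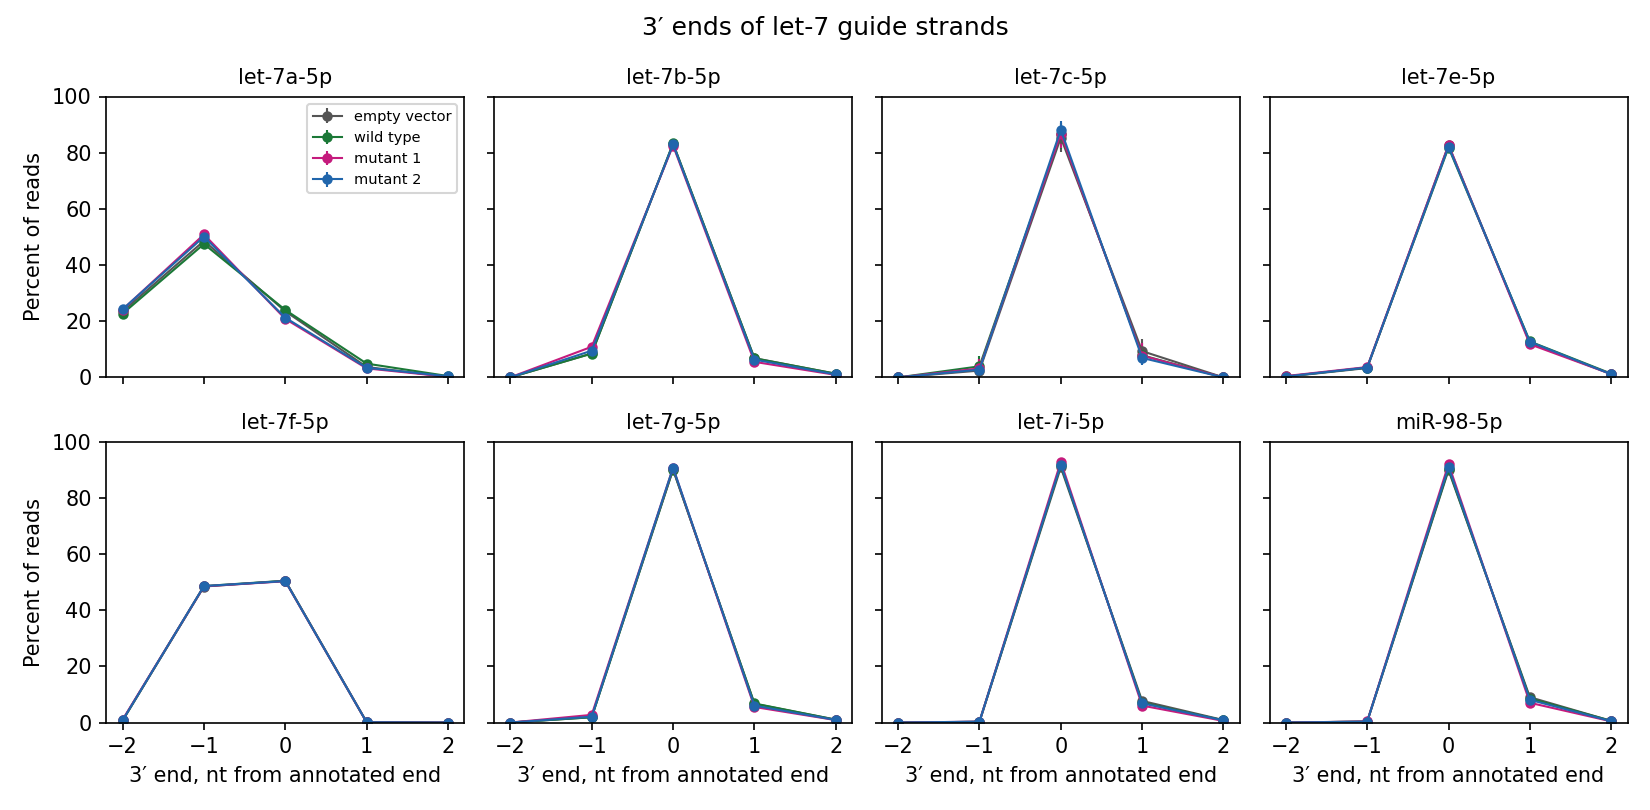
Percent of reads of each member (vertical axis) by position of the 3p end in nt from the annotated end (horizontal axis), with 1 line per library and bars for the 95% Wilson interval. The 6 single-copy members peak at the annotated end, hsa-let-7f-5p is level over 2 positions and hsa-let-7a-5p peaks 1 nt before the annotated end.

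The mutant 1 library had shorter 3p ends across untransfected miRNAs, and the members were part of this. Over 262 untransfected miRNAs with 1 match and a mean of at least 200 reads, the mean 3p position was lower in mutant 1 than in the wild-type library in 227 (86.6%), with a median difference of -0.053 nt. Among the 6 single-copy members it was lower in 5, with a median of -0.021 nt. The exception was hsa-let-7c-5p, with 0.030 nt and at most 219 reads in those libraries. In the wild-type library against the empty vector the median difference over the 262 was -0.005 nt and 56.9% were lower, and in mutant 2 against the empty vector it was -0.019 nt and 72.5% were lower, with 4 of 6 and 6 of 6 members lower.

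The difference could be read in single ends. The share of longer reads was lower in mutant 1 than in the wild type in 79.8% of the 262 miRNAs, by a median of 1.77 points, and in 5 of 6 members, whose median was 1.41 points lower. Reads 1 nt longer than annotated made up 9.04%, 8.57%, 7.05% (6.92 to 7.17%) and 8.10% of hsa-miR-98-5p in the empty vector, wild-type, mutant 1 and mutant 2 libraries, and 7.71%, 7.09%, 6.05% (5.93 to 6.18%) and 6.86% of hsa-let-7i-5p. For hsa-let-7g-5p the shares were 6.71%, 6.80%, 5.56% (5.44 to 5.68%) and 6.05%. In these 3 members, and in hsa-let-7b-5p with 6.87%, 6.79%, 5.55% (5.38 to 5.71%) and 6.35%, mutant 1 was the lowest by more than counting error. In hsa-let-7e-5p mutant 1, at 11.8% (11.5 to 12.1%), overlapped the empty vector, at 12.3% (12.0 to 12.5%), and in hsa-let-7c-5p mutant 2 was lower than mutant 1, at 6.94% (4.54 to 10.5%) against 7.76% (4.90 to 12.1%).

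Reads that end short of the annotated base took a higher share in mutant 1 than in the wild type in 72.1% of the 262 miRNAs and in 5 of 6 members. Those 1 nt short made up 8.52%, 8.49%, 10.9% (10.7 to 11.1%) and 9.52% of hsa-let-7b-5p, and 1.92%, 1.89%, 2.74% (2.66 to 2.83%) and 2.11% of hsa-let-7g-5p. Mutant 1 was the highest in both. In hsa-let-7i-5p the shares were 0.275%, 0.276%, 0.332% and 0.336%, with overlapping intervals for mutant 1 (0.304 to 0.364%) and the wild type (0.251 to 0.304%). In hsa-let-7e-5p the shares were 3.34%, 3.50%, 3.68% and 3.53%, and the interval of mutant 1 (3.51 to 3.86%) overlapped those of the wild type (3.34 to 3.67%) and mutant 2 (3.38 to 3.68%). In hsa-miR-98-5p the same share was 0.348%, 0.367%, 0.391% and 0.337%, and the interval of mutant 1 (0.361 to 0.422%) overlapped that of the wild type (0.339 to 0.397%).

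Each 3p end was also set against the annotated end of the same member, among reads with the annotated start, as a log2 difference that no scaling affects. In mutant 1 against the wild type, reads 1 nt past the annotated end were lower by this measure in all 5 single-copy members with at least 50 such reads. The values were -0.31 (-0.35 to -0.27) for hsa-miR-98-5p, -0.30 (-0.35 to -0.26) for hsa-let-7g-5p, -0.28 (-0.34 to -0.22) for hsa-let-7b-5p, -0.25 (-0.29 to -0.20) for hsa-let-7i-5p and -0.13 (-0.19 to -0.08) for hsa-let-7e-5p. Reads 1 nt short were higher, at 0.53 (0.46 to 0.60) for hsa-let-7g-5p, 0.38 (0.33 to 0.43) for hsa-let-7b-5p and 0.25 (0.06 to 0.44) for hsa-let-7i-5p. For hsa-let-7e-5p, at 0.06 (-0.04 to 0.16), and hsa-miR-98-5p, at 0.06 (-0.10 to 0.22), the interval included 0. The paired ends of hsa-let-7f-5p did not part, at -0.01 (-0.06 to 0.04) for reads 1 nt short. This log2 difference was computed for members alone, so whether they differ in it from other untransfected miRNAs was not tested. In mutant 1 against the wild type, the share of longer reads was lower in 79.8% of the 262 miRNAs above. That of shorter reads was higher in 72.1%.

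In the same comparison the multicopy members, whose counted reads are mostly short or paired ends, had log2 ratios, for reads with the annotated start, of 0.34 (0.26 to 0.41) for hsa-let-7a-5p 1 nt short, and for hsa-let-7f-5p of 0.26 (0.22 to 0.29) 1 nt short and 0.26 (0.23 to 0.30) at the annotated end. The part of the 3p ends in the totals of hsa-let-7a-5p and hsa-let-7f-5p was not tested.

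**Figure D4:**
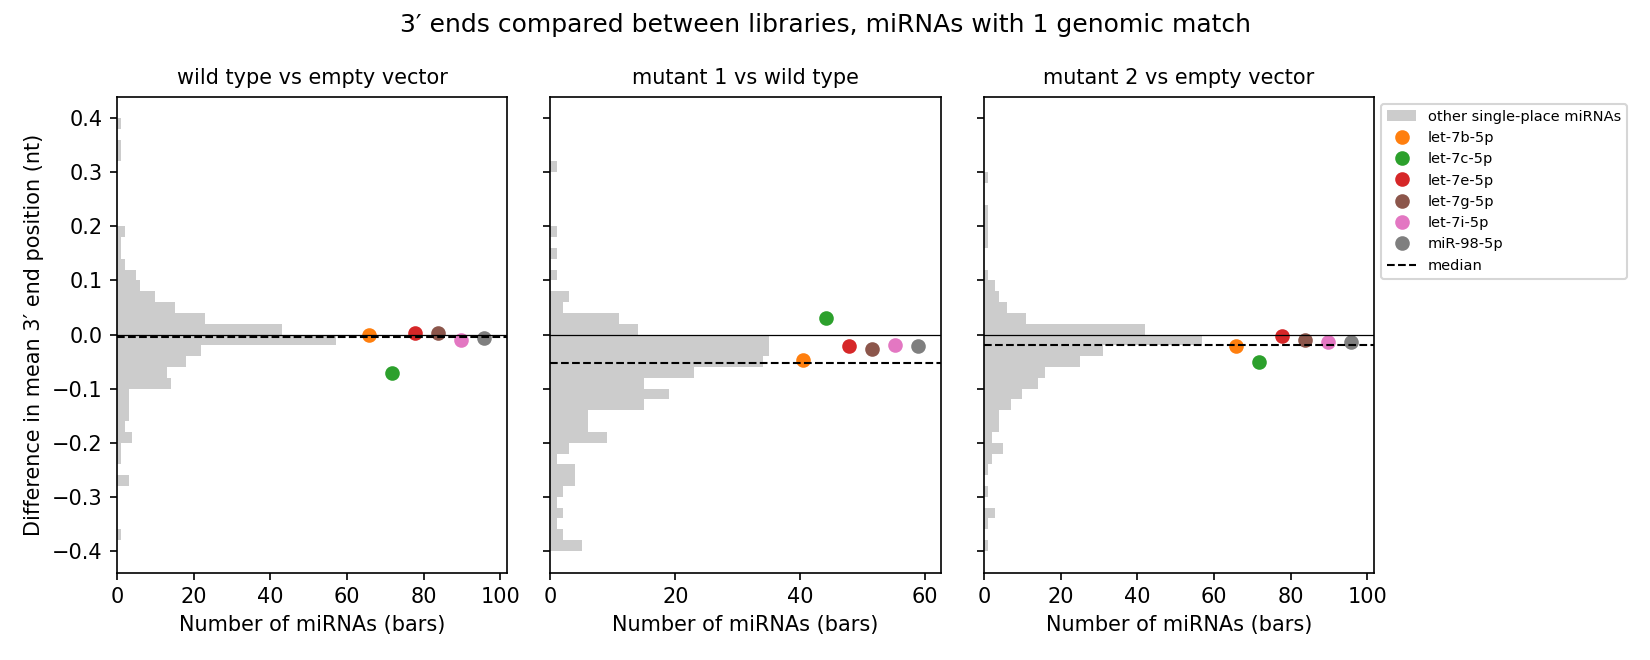
Difference in mean 3p end position in nt (vertical axis) in 3 comparisons for untransfected miRNAs with 1 genomic match. Bars count miRNAs other than the members, with values beyond 0.4 or -0.4 placed at the edge, coloured points are the 6 single-copy members, the solid line is 0 and the dashed line the median. In mutant 1 against the wild type the median is -0.053 nt, and 5 of 6 members lie below 0.

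Most member reads were 22 nt long in every library, as annotated. The share was 86.2% (86.1 to 86.3%) with the empty vector, 86.4% for the wild type, 86.4% in mutant 1 and 86.3% in mutant 2. Reads of 21 nt took 4.16%, 4.30%, 5.69% and 4.85%, and reads of 23 nt 8.27%, 7.92%, 6.70% and 7.52%. Without the multicopy members the shares of 21 nt were 1.98%, 2.17%, 2.71% and 2.39%. In both sets mutant 1 had the highest share of reads of 21 nt and, over all members, the lowest of 23 nt. The offsets of 24 member isoforms, with 20, 14, 32 and 19 reads, imply lengths outside the 18 to 26 nt that the authors' trimming kept, and whether offsets are exact in such cases was not tested.

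Several members are made from transcripts that carry other miRNAs. hsa-let-7e-5p shares its cluster with hsa-miR-99b-5p and hsa-miR-125a-5p, which were at 9216, 8657, 7893 and 8855 RPM and at 2666, 2877, 2970 and 2934 RPM. The ratio of hsa-miR-125a-5p to hsa-let-7e-5p, which no scaling affects, was 0.634 (0.625 to 0.642) with the empty vector, 0.757 (0.746 to 0.767) for the wild type, 0.917 (0.905 to 0.929) in mutant 1 and 0.759 (0.750 to 0.769) in mutant 2. That of hsa-miR-99b-5p to hsa-let-7e-5p was 2.19 (2.17 to 2.21), 2.28 (2.25 to 2.30), 2.44 (2.41 to 2.46) and 2.29 (2.27 to 2.31). Both ratios were lowest with the empty vector and highest in mutant 1, with mutant 2 and the wild type between.

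hsa-let-7c-5p shares its cluster with hsa-miR-99a-5p, which had 45, 44, 41 and 43 reads. Both were low in all 4 libraries, and the ratio of hsa-miR-99a-5p to hsa-let-7c-5p, from 0.149 (0.108 to 0.206) to 0.217 (0.156 to 0.300), did not differ beyond counting error. The cluster of MIRLET7A2 includes hsa-miR-100-5p, a single-copy miRNA at 38780, 34861, 29415 and 34033 RPM, and hsa-miR-125b-5p, which also lies in the cluster of MIRLET7C, has 2 genomic matches and was at 44.3, 41.2, 47.9 and 44.9 RPM. In mutant 1 against the wild type hsa-miR-100-5p had a log2 ratio of -0.25 (-0.25 to -0.24), near those of the single-copy members. That of hsa-miR-125b-5p was 0.22 (0.05 to 0.39), near those of the multicopy members. The other partners, each with 1 match, were not alike. hsa-miR-99b-5p was at -0.13 (-0.15 to -0.12) and hsa-miR-99a-5p, with few reads, at -0.30 (-0.91 to 0.32). hsa-miR-125a-5p was at 0.05 (0.03 to 0.07), above 0 unlike the single-copy members at this scale.

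The miRNAs whose profile over the 4 libraries was closest to the family sum were found among 467 untransfected miRNAs read often enough (mean of 50 or more), by the root mean square difference of centred log2 levels. They were hsa-miR-556-3p (0.010), hsa-miR-2116-3p (0.016) and hsa-miR-181d-5p (0.017). The centred log2 levels of the family sum were 0.10, 0.06, -0.17 and 0.01 in the empty vector, wild-type, mutant 1 and mutant 2 libraries, and those of hsa-miR-556-3p were 0.08, 0.06, -0.17 and 0.03. Counting error alone was 0.13, 0.14 and 0.03 for these 3, more than the distances, and 48 of the 467 lay within their own counting error, so no order among them can be read.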

How the data were processed

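Small RNA was sequenced from 4 libraries of transfected HCT116 cells. The counts are those the authors deposited, whole reads for each isoform, not normalized, after adapter trimming with cutadapt, a quality filter, alignment to hg38 with Bowtie2 and selection of unambiguous reads, with mismatches allowed at the 3p end, in miRBase v22 loci. Reads were summed over isoforms and scaled to untransfected miRNA reads. Comparisons were made between single libraries, with no test and a fold of 1.5 in place of a call, a minimum mean of 50 reads (200 for ends), and 95% intervals (Wilson for shares, Poisson for counts, normal on the log scale for ratios). A count of 3 was the floor.

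As alternatives, libraries were scaled by total miRNA reads, by miR-16-5p, by edgeR (version 4.0.16) TMM, by DESeq2 (version 1.42.0) in R 4.3.3 or without the members, and other isoform sets, other minimums and a fold of 2 were run. Leaving out hsa-let-7a-5p and hsa-let-7f-5p was chosen after seeing the data. The miRNAs named are the members, those with their seed, their cluster partners, the 3 closest to the family sum, the cell type markers and miR-16-5p. Members and lists were chosen with earlier results of these data known. Exact matches were searched in hg38, and loci are from GENCODE release 44. Python 3.11.15 with pandas 2.3.3, numpy 2.4.6, scipy 1.17.1 and matplotlib 3.10.9 was used. The ratio step was tested on simulated counts.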

Additional observations from a re-analysis of the deposited data

How the results depend on the processing

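No paired analysis was possible because each group has 1 library. The family sum kept a log2 ratio below 0 in all 3 comparisons and under every alternative run. In the wild type against the empty vector it moved from -0.03 to -0.42 with all miRNA reads as the scale, to -1.07 with miR-16-5p, and to -0.14 with both TMM and DESeq2. In mutant 1 against the wild type it moved from -0.23 to -0.25 with miR-16-5p, -0.01 with TMM, -0.03 with DESeq2, -0.24 without the members in the scale and -0.26 without hsa-let-7a-5p and hsa-let-7f-5p, an alternative chosen after seeing the data. In mutant 2 against the empty vector it moved from -0.08 to -0.14, -1.38, -0.11 and -0.13 with the first 4 scalings, and to -0.09 without hsa-let-7a-5p and hsa-let-7f-5p. The number of members past 1.5-fold rose from 0 to 1 (all miRNA reads) and 8 (miR-16-5p) in the wild type against the empty vector, and to 8 (miR-16-5p) in mutant 2 against the empty vector. It stayed at 0 in the other 24 settings, a fold of 2 among them. The family share in the empty vector, wild-type, mutant 1 and mutant 2 libraries was 4.74%, 3.54%, 3.03% and 4.29% of all miRNA reads, 5.11%, 4.99%, 4.25% and 4.83% with the annotated 5p end alone, and 4.91%, 4.80%, 4.01% and 4.60% without hsa-let-7a-5p and hsa-let-7f-5p. The percent of untransfected miRNAs past 1.5-fold, in the order of comparisons above, was 16.3% in the first with all miRNA reads, 85.4% in the first and 95.7% in the last with miR-16-5p, rose to 21.5%, 27.2% and 20.6% with a minimum of 10 reads and was 6.91%, 11.3% and 5.81% with a minimum of 200. The miR-16-1 plasmid was in 3 of the 4 mixtures, and the cause of these moves was not tested. hsa-let-7c-5p had at most 288 reads in a library, and differences between repeated transfections were not measured.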
